A study of Mus musculus with 18 samples.

Results

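Chemokine and NF-kB response genes were followed in the liver and kidney of mice given the liver toxin D-galactosamine (GalN). The group holds 10 genes chosen by name from the 18193 genes of the arrays: the chemokines Cxcl1, Cxcl10, Ccl2 and Ccl28, the chemokine scavenging receptor Ackr4, the adhesion molecule Icam1, the NF-kB regulators and targets Nfkbia, Tnfaip2 and Tnfaip3, and the lipopolysaccharide co-receptor Cd14. Each gene is read from 1 probe set: of the sets annotated to that gene alone, the one whose values over the 18 arrays had the highest mean. The only measured values this choice used were those mean levels. The names were listed with earlier results of these data known, so the tests below describe the genes and are no independent support for them.

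Chemokines are small secreted proteins that draw leukocytes toward injured tissue through receptors on the leukocyte surface. NF-kB is a transcription factor family held in the cytoplasm by inhibitors such as the Nfkbia protein, and it is freed when cells sense cytokines or bacterial lipopolysaccharide. It then drives genes for chemokines, for adhesion molecules of the vessel wall and for its own inhibitors. In liver, Kupffer cells, sinusoidal endothelial cells and hepatocytes all use this pathway, and in kidney tubular epithelium does so too.

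Male C57BL6 mice received an intraperitoneal injection of GalN at 4.5 g per kg, or saline (sham), with 3 mice in each of 3 treatment groups. Organs were perfused and taken 24 h after saline, 24 h after GalN or 48 h after GalN, so no sham group matches the 48 h time. Liver and kidney RNA gave 18 Affymetrix arrays in 6 groups of 3, whose members carry the letters A, B and C. One phrase of the design text can be read as pooling of RNA from 3 mice. The arrays were treated here as single animals, and p-values measure only the spread between these arrays.

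Values are log2 gcRMA expression values, and a difference of 1 is a doubling. The lowest value of the arrays was 2.213, a floor that 46.8% to 48.8% of probe sets in each array reached or came within 0.1 of. A probe set can also return exactly the same reading in several arrays, which is treated as background here. Where a group holds a background reading, or any value within 1 of the lowest, a fold change against it is given as a lower bound. Pairs of arrays from the same group had Pearson correlations of 0.983 to 0.998 over all probe sets, and liver 48 h array C had the widest gap between 3′ and 5′ actin probes (2.56, against 1.48 to 2.02 in the others). Genes were called at a Benjamini-Hochberg adjusted p under 0.05 in limma, adjusted over all genes tested in a tissue. The sets used for Cxcl1, Nfkbia (suffix s) and Tnfaip2 (suffix x) belong to classes that can also match related transcripts. Of the 10 genes, 9 passed the filter on low values in liver and 8 in kidney.

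RefSeq promoters (GRCm38.p6, from 250 bases before to 50 after the annotated start, given 5′ to 3′ on the gene's strand) were used for 8 of the 10 genes, and are shown for the genes with the largest called changes in liver (Icam1) and kidney (Ackr4, Ccl28) and for Cxcl10, the only one of the 8 genes with the interferon-stimulated response core described next. Both strands were searched for the kappaB consensus of NF-kB, the AP-1 site TGANTCA, the interferon-stimulated response core (GAAA, any pair of bases, then GAAA again) and TATAAA, with overlapping matches merged, and capitals mark every match.
Icam1 (chr9:21015690-21015989, plus strand): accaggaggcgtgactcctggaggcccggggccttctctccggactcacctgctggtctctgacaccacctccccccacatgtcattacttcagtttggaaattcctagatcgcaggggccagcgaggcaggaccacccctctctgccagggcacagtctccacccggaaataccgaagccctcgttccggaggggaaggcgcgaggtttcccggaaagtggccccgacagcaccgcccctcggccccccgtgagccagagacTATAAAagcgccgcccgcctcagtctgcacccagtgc
Ackr4 (chr9:104126594-104126893, minus strand): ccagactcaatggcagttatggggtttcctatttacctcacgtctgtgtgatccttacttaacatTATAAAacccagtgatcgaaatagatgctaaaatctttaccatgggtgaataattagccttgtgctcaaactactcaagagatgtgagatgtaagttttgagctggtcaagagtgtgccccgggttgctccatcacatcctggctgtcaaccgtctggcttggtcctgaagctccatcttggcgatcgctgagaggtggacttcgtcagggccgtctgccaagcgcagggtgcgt
Ccl28 (chr13:119623569-119623868, plus strand): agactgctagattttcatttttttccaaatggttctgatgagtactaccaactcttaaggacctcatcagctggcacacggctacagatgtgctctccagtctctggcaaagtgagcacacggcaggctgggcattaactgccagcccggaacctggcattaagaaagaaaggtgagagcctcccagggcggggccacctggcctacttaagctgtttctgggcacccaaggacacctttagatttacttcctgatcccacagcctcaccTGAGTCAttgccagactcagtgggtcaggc
Cxcl10 (chr5:92348840-92349139, minus strand): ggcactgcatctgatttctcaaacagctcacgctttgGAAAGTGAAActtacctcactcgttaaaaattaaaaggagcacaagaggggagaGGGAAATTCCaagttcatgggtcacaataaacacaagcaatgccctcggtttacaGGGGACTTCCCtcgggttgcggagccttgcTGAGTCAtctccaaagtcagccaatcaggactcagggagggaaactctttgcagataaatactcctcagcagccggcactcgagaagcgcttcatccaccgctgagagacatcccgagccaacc

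Shorter windows around the kappaB matches are shown for 3 further genes that carry the motif. Capitals mark the matched stretch.
Cxcl1 (chr5:90891164-90891193, plus strand): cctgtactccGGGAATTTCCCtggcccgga
Nfkbia (chr12:55492657-55492686, minus strand): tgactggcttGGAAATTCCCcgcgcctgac
Tnfaip2 (chr12:111442627-111442656, plus strand): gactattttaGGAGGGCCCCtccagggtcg

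The kappaB consensus was found in 1 merged stretch in each of Cxcl1, Nfkbia and Tnfaip2, in 2 stretches in Cxcl10 and in 2 stretches of 1 of the 2 Tnfaip3 promoters. It occurs in 8.46% of the 32851 promoters of this length. Cxcl10 also held 1 AP-1 site and 1 interferon-stimulated response core, motifs found in 7.81% and 3.44% of promoters. Ccl28 and the same Tnfaip3 promoter held 1 AP-1 site each, and Icam1, Ackr4, Nfkbia and that Tnfaip3 promoter held 1 TATAAA each, a motif found in 13.6% of promoters. The kappaB letters searched were GGG, then A or G, any pair of bases, a pair each C or T, and CC. They were not in these windows of Icam1, Ackr4 and Ccl28. Forms that depart from these letters were not searched. The printed Icam1 promoter holds tggaaattcc, which differs from them in its first letter, so a lack of matches does not show a lack of sites. A match is a description of the letters only.

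Icam1, an endothelial and epithelial ligand for leukocyte integrins, showed the largest liver response of the 10 genes. Sham livers read 5.02, 5.15 and 4.82 in arrays A, B and C, 24 h livers 9.04, 8.73 and 8.45, and 48 h livers 6.45, 7.75 and 6.82. The 3 groups did not overlap, with the 24 h livers highest and the 48 h livers between them and sham. Icam1 was 13.4-fold higher at 24 h (log2 difference 3.74, SE 0.33, adjusted p = 3.99e-04, higher in 3 of 3 arrays) and 4.03-fold higher at 48 h (2.01, SE 0.33, adjusted p = 0.0144). From 24 h to 48 h it fell by 1.73 on the log2 scale, with an adjusted p of 0.00866. The call at 48 h was lost without sham liver array C (adjusted p = 0.0516, in a range of 1.67e-04 to 0.0516 over all alternatives). The fall from 24 h to 48 h was not called by the rank product test (adjusted p = 0.106, range 1.55e-04 to 0.106).

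Kidney Icam1 moved much less. Sham kidneys read 7.46, 7.03 and 6.91, 24 h kidneys 7.79, 7.58 and 7.62, and 48 h kidneys 7.07, 7.37 and 7.16. The 24 h kidneys lay above all sham and all 48 h kidneys, and the sham and 48 h kidneys overlapped. The difference of 0.53 at 24 h was not called (95% interval 0.16 to 0.90, adjusted p = 0.101). At 48 h the difference was 0.07 (95% interval -0.31 to 0.44). Over all 6 groups the set was highest in 24 h liver (8.74 ± 0.30, SD, n = 3), then in 24 h kidney (7.66 ± 0.11), and these did not overlap. The 48 h kidneys, sham kidneys and 48 h livers (7.01 ± 0.67) followed and overlapped, and sham liver was lowest (5.0 ± 0.17) and apart from them. Liver array B at 48 h (7.75) lay within the range of the 24 h kidneys.

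**Figure D1:**
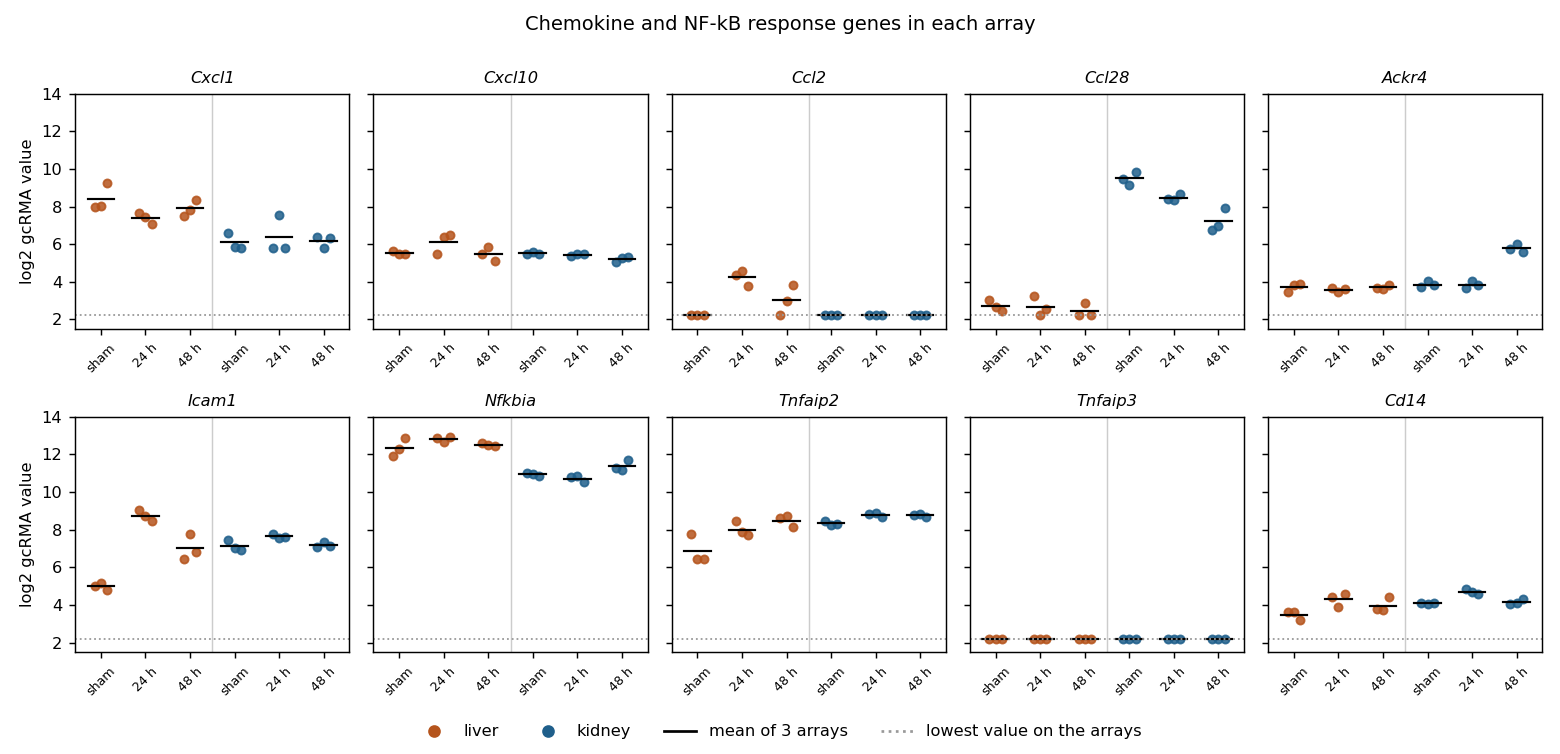
Log2 gcRMA value of each of the 10 genes in each of the 18 arrays, liver in brown and kidney in blue, with black bars for the mean of 3 arrays and a dotted line at the lowest value of the arrays (2.213). Icam1 stands out in the treated livers, Ccl28 falls across the kidney groups, Ackr4 is high in the 48 h kidneys, and Tnfaip3 stays at the lowest value.

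Among the chemokine ligands, Ccl2, the chemokine that attracts monocytes through the receptor Ccr2, read above the lowest value only in treated livers. It read 2.21 in all 3 sham livers, 4.35, 4.58 and 3.78 at 24 h, and 2.21, 3.00 and 3.82 at 48 h. It read 2.21 in all 9 kidneys and was not tested there. The 24 h livers lay above all sham livers, while the 48 h livers ran from the lowest value of the arrays into the range of the 24 h livers.

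Liver Ccl2 was at least 4.07-fold higher at 24 h than in sham (log2 difference 2.02, SE 0.39, adjusted p = 0.00724, higher in 3 of 3 arrays). It passed the filter only through its treated livers, and its 3 identical sham readings make the spread in the test, and with it the p, smaller than it may be. The rank product test did not call it (adjusted p = 0.0808, range over alternatives 5.06e-05 to 0.0808). At 48 h the difference from sham was 0.80 (95% interval -0.12 to 1.71, adjusted p = 0.258). The step of -1.23 from 24 h to 48 h was not called with all arrays (adjusted p = 0.0545) and was called without 48 h liver array C (adjusted p = 0.0107, range over alternatives 0.00305 to 0.241).

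Cxcl1, a chemokine for neutrophils, was lower rather than higher on average in treated livers. Sham livers read 7.96, 8.04 and 9.23, 24 h livers 7.66, 7.42 and 7.10, and 48 h livers 7.51, 7.83 and 8.34. All 24 h livers lay below all sham livers, by 1.02 on average, and this difference was not called (95% interval -1.92 to -0.11, adjusted p = 0.0840). Sham liver array C was the highest of the 9 livers. The call was made under 3 alternatives, with adjusted p from 0.0391 to 0.415 over all alternatives.

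In kidney Cxcl1 sat near a recurring reading of 5.78. Sham kidneys read 6.62, 5.88 and 5.78, 24 h kidneys 5.78, 7.55 and 5.78, and 48 h kidneys 6.36, 5.78 and 6.33. One 24 h kidney, array B, stood above all other kidneys, and the groups overlapped. The differences from sham were 0.28 at 24 h (95% interval -0.92 to 1.47) and 0.07 at 48 h (95% interval -1.13 to 1.26).

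Cxcl10, an interferon-induced chemokine for T cells, whose promoter is printed above, returned the same reading of 5.47 in 8 of the 18 arrays. Livers read 5.64, 5.47 and 5.47 in sham, 5.47, 6.38 and 6.47 at 24 h, and 5.47, 5.84 and 5.10 at 48 h. Liver arrays B and C at 24 h were the highest of all 18, and array A at 24 h was at the recurring reading. The 24 h difference of 0.58 was not called (adjusted p = 0.186) and was called without 24 h liver array A (0.90, adjusted p = 0.0274, range over alternatives 0.0252 to 0.918). The step to 48 h was likewise called only without that array among the omissions (adjusted p = 0.0264, against 0.164 with it, range over alternatives 0.0264 to 0.775).

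Kidneys read 5.47, 5.60 and 5.47 in sham for Cxcl10, 5.36, 5.47 and 5.47 at 24 h, and 5.07, 5.26 and 5.29 at 48 h. All 48 h kidneys lay below all other kidneys. The sham and 24 h kidneys held the recurring reading of 5.47, treated as background here, and the 48 h kidneys lay below it. This order is thus one among readings at background level. The differences from sham were -0.08 at 24 h and -0.31 at 48 h, neither called (adjusted p = 0.594 and 0.0941).

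Ccl28, a chemokine made by mucosal and other epithelia, read high only in kidney. Sham kidneys read 9.48, 9.17 and 9.84, 24 h kidneys 8.38, 8.37 and 8.67, and 48 h kidneys 6.76, 6.95 and 7.91. The 3 groups did not overlap and stood in the order sham, 24 h, 48 h from high to low. Livers read 3.03, 2.69 and 2.47 in sham, 3.25, 2.22 and 2.57 at 24 h, and 2.23, 2.85 and 2.22 at 48 h, all close to the lowest value.

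Kidney Ccl28 was 4.89-fold lower at 48 h than in sham (log2 difference -2.29, SE 0.32, adjusted p = 0.0234, lower in 3 of 3 arrays). At 24 h the difference of -1.02 was not called (95% interval -1.77 to -0.28, adjusted p = 0.108), and it was called without 48 h kidney array C (adjusted p = 0.0472, range over alternatives 0.0472 to 0.234). The step of -1.27 from 24 h to 48 h was not called either (adjusted p = 0.0981). The call at 48 h was lost without 48 h kidney array B (adjusted p = 0.0861) and without sham kidney array A, B or C (0.0856, 0.0704 and 0.0503), in a range of 0.00125 to 0.0861 over all alternatives. In liver the differences of -0.05 and -0.30 from sham were between readings near the lowest value and were not called.

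Ackr4, a receptor that takes up and removes chemokines of the Ccr7 and Ccr9 axes without signalling for migration, changed in 48 h kidney. Sham kidneys read 3.72, 4.03 and 3.81, 24 h kidneys 3.69, 4.05 and 3.81, and 48 h kidneys 5.73, 6.0 and 5.60. The 48 h kidneys lay above the other 15 arrays, while the sham and 24 h kidneys overlapped. Ackr4 was 3.80-fold higher at 48 h than in sham (log2 difference 1.92, SE 0.14, adjusted p = 0.00457, higher in 3 of 3 arrays), a call held in all 20 alternatives. The sham kidneys lay close to 3.81, a reading that recurred in other arrays, so this fold may be a lower bound. Against 24 h Ackr4 was at least 3.80-fold higher (adjusted p = 0.00675), which was lost without 48 h kidney array A (adjusted p = 0.0532, range over alternatives 5.68e-06 to 0.0532).

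Livers read between 3.47 and 3.90 for Ackr4 in all 9 arrays. Sham livers read 3.47, 3.81 and 3.90, 24 h livers 3.66, 3.47 and 3.60, and 48 h livers 3.68, 3.61 and 3.81, so the groups overlapped. The differences from sham were -0.15 (95% interval -0.43 to 0.13) and -0.03 (95% interval -0.31 to 0.25).

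Of the regulators of NF-kB, Nfkbia, the inhibitor that binds NF-kB and is itself an NF-kB target, read high in both organs and varied little. Livers read 11.94, 12.30 and 12.86 in sham, 12.85, 12.68 and 12.94 at 24 h, and 12.59, 12.50 and 12.44 at 48 h. Sham liver array C lay among the 24 h livers, the other 2 sham livers below them. The 24 h difference of 0.46 was not called (95% interval -0.05 to 0.97, adjusted p = 0.150) and was called without sham liver array C (0.71, adjusted p = 0.0137, range over alternatives 0.0137 to 1).

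Kidneys read 11.04, 10.94 and 10.88 in sham for Nfkbia, 10.80, 10.86 and 10.52 at 24 h, and 11.29, 11.16 and 11.68 at 48 h. The 3 kidney groups did not overlap, with the 24 h kidneys lowest and the 48 h kidneys highest. The differences were -0.23 at 24 h (adjusted p = 0.411), 0.43 at 48 h (adjusted p = 0.180) and 0.65 from 24 h to 48 h (adjusted p = 0.0821), none of them called. All kidneys read below all livers for this probe set.

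Tnfaip3, the ubiquitin-editing enzyme A20 that shuts off NF-kB signalling, was at the lowest value in every array. Its 18 readings ran from 2.213 to 2.215, its other probe set read 2.213 throughout, and it was not tested in either tissue. These values give no information on a change in either organ.

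Tnfaip2, a tumor necrosis factor induced gene of endothelial and myeloid cells, was called higher in liver at 48 h and in kidney at both times. Livers read 7.78, 6.45 and 6.43 in sham, 8.47, 7.86 and 7.72 at 24 h, and 8.60, 8.71 and 8.16 at 48 h. Sham liver array A lay within the 24 h range, and all 48 h livers lay above all sham livers. Tnfaip2 was 3.04-fold higher in liver at 48 h (log2 difference 1.61, SE 0.40, adjusted p = 0.0498, higher in 3 of 3 arrays). At 24 h the difference of 1.13 was not called (adjusted p = 0.0709), and without sham liver array A it was 1.58 and called (adjusted p = 0.00989, range over alternatives 0.00688 to 0.420). The call at 48 h was lost in 14 of 20 alternatives, among them without each array of 24 h or 48 h liver and without sham liver array B or C (adjusted p = 0.0569 to 0.156).

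Kidneys read 8.46, 8.26 and 8.29 in sham for Tnfaip2, 8.81, 8.91 and 8.70 at 24 h, and 8.77, 8.86 and 8.70 at 48 h. Both treated groups lay above all sham kidneys and overlapped each other. The gene was 1.39-fold higher at 24 h (log2 difference 0.47, SE 0.08, adjusted p = 0.0297) and 1.36-fold higher at 48 h (0.44, SE 0.08, adjusted p = 0.0458). The 24 h call was lost in 11 of 20 alternatives, among them without 24 h kidney array A or B, 48 h kidney array B or any sham kidney (adjusted p = 0.0505 to 0.106). The 48 h call was lost in 14 of 20, among them without each 48 h or sham kidney and without 24 h kidney array A or C (adjusted p = 0.0529 to 0.148).

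Cd14, the co-receptor that hands lipopolysaccharide to the Tlr4 complex on monocytes, macrophages and some epithelia, read low in both organs. Livers read 3.63, 3.63 and 3.23 in sham, 4.45, 3.90 and 4.58 at 24 h, and 3.77, 3.74 and 4.41 at 48 h. All treated livers lay above all sham livers, and the 2 treated groups overlapped. Cd14 was at least 1.75-fold higher at 24 h (log2 difference 0.81, SE 0.25, adjusted p = 0.0433, higher in 3 of 3 arrays), and the difference of 0.47 at 48 h was not called (adjusted p = 0.293). The 24 h call was lost in 11 of 19 alternatives, among them without 24 h liver array A or C, 48 h liver array A or B or any sham liver (adjusted p = 0.0533 to 0.131).

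Kidneys read 4.11, 4.08 and 4.11 in sham for Cd14, 4.85, 4.70 and 4.59 at 24 h, and 4.08, 4.13 and 4.30 at 48 h. The 24 h kidneys lay above all other kidneys, and the sham and 48 h kidneys overlapped. Cd14 was at least 1.53-fold higher at 24 h (log2 difference 0.62, SE 0.08, adjusted p = 0.0198, higher in 3 of 3 arrays) and was at least 1.46-fold lower at 48 h than at 24 h (adjusted p = 0.0349). The rise was lost without 24 h kidney array B or sham kidney array A or B (adjusted p = 0.0576, 0.0545 and 0.0698), and the fall was lost without any 1 of the 9 kidneys (adjusted p = 0.0503 to 0.108).

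Over the 6 groups, Ccl28 stood highest in sham kidney (9.49 ± 0.34, SD, n = 3), then in 24 h kidney (8.47 ± 0.17) and 48 h kidney (7.20 ± 0.62), and each lay apart from the next and from the 3 overlapping liver groups. Nfkbia had its highest mean in 24 h liver (12.82 ± 0.13), whose arrays lay above all 48 h livers (12.51 ± 0.07). The sham livers (12.36 ± 0.47) overlapped both of these groups. Below the livers, 48 h kidney (11.38 ± 0.27), sham kidney (10.95 ± 0.08) and 24 h kidney (10.72 ± 0.18) each lay apart. For Tnfaip2, all neighbours in the order overlapped, from 24 h kidney (8.81 ± 0.11) down to sham liver (6.89 ± 0.77). Cd14 was highest in 24 h kidney (4.72 ± 0.13) and lowest in sham liver (3.50 ± 0.23), both apart from the 4 overlapping groups between them. Cxcl1 ran from 8.41 ± 0.71 in sham liver to 6.09 ± 0.46 in sham kidney. Cxcl10 ran from 6.11 ± 0.55 in 24 h liver to 5.21 ± 0.12 in 48 h kidney. The 48 h kidneys lay below all other kidneys, but 48 h liver array C (5.10) lay within their range.

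**Figure D2:**
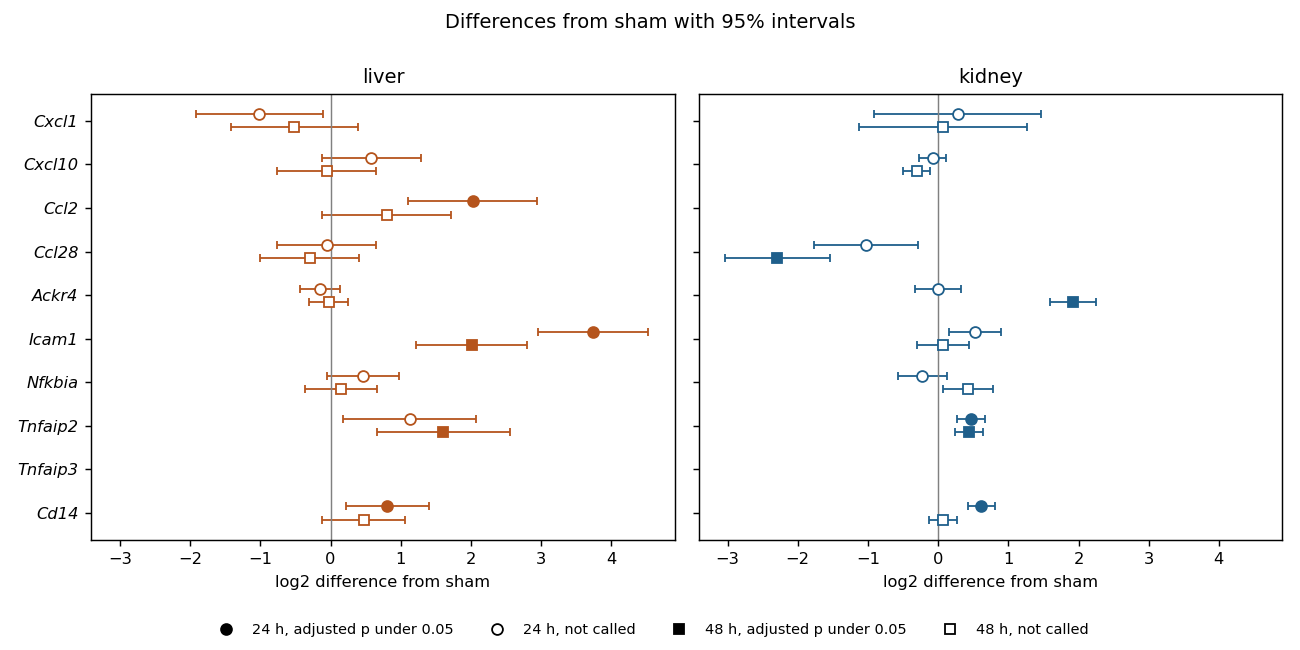
Log2 difference from sham of each tested gene in liver (left) and kidney (right) at 24 h (circles) and 48 h (squares), with 95% intervals of the limma fit; filled symbols have an adjusted p under 0.05. The widest departures are Icam1 (3.74 at 24 h in liver), Ccl2 (2.02 at 24 h in liver), Ccl28 (-2.29 at 48 h in kidney) and Ackr4 (1.92 at 48 h in kidney).

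Counted over the group, 3 of 9 tested genes were called in liver at 24 h, all higher (Icam1, Ccl2, Cd14), where limma called 32.9% of all 12071 tested genes in either direction and 17.9% as higher. Ccl2 passed the filter only through its treated livers. Its place in the liver counts and medians below is therefore a description and no support. The median difference of the 9 was 0.58, against 0.00 over all genes tested. In 4 of the 9 the 24 h and sham livers did not overlap, which held for 49.8% of all genes. In liver at 48 h 2 of 9 were called, both higher (Icam1, Tnfaip2), against 10.2% of all genes in either direction and 6.24% as higher. The median difference was 0.15, against 0.03 over all genes, and 3 of the 9 did not overlap, against 28.5% of all genes. The count was 0 without sham liver array C and 1 without any other single array except sham liver array A. From 24 h to 48 h in liver 1 of 9 was called (Icam1, lower), against 27.8% of all genes, with a median difference of -0.31 against 0.00, and 2 of 9 did not overlap, against 40.8%. That count was 2 without 24 h liver array A or 48 h liver array C. At 24 h the share of these genes called in liver was close to that of all genes, so the count says nothing particular about them.

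In kidney at 24 h 2 of 8 tested genes were called, both higher (Tnfaip2, Cd14), against 5.31% of all 12003 genes tested in either direction, 2.21% as higher and 3.1% as lower. The median difference was 0.14, against 0.00 over all genes, and 5 of 8 did not overlap, against 27% of all genes. The count was 0 without 24 h kidney array B or sham kidney array A or B, and 1 without 24 h kidney array A, 48 h kidney array B or sham kidney array C. In kidney at 48 h 3 of 8 were called, with Tnfaip2 and Ackr4 higher and Ccl28 lower, against 2.69% of all genes (1.29% higher, 1.40% lower). The median difference was 0.07, against 0.00, and 5 of 8 did not overlap, against 27.1%. The count was 1 without 48 h kidney array B or any sham kidney. From 24 h to 48 h 2 of 8 were called, with Ackr4 higher and Cd14 lower, against 1.61% of all genes, and the median difference was -0.22 against 0.00. In that step 6 of 8 did not overlap, against 21.6% of all genes, and the count was 0 without 48 h kidney array A and 1 without any other kidney. Cxcl10, at background level in kidney, is among the genes that did not overlap at 48 h and in the step. Leaving out 1 kidney moved the count over all genes too, from 637 to as few as 15 at 24 h (without sham array B), from 323 to 29 at 48 h (without sham array A) and from 193 to 1 for the step (without 48 h array A). The comparisons of 1 tissue share arrays, so their counts are not independent.

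The difference between the responses of the 2 organs was tested directly in a fit of all 18 arrays, which treats livers and kidneys as independent although 9 mice gave both organs and the labels do not say which liver and kidney belong together. At 24 h it was called for 2 of 9 genes, where 30.3% of 12467 genes were called. Icam1 responded less in kidney than in liver, with a difference of -3.21 on the log2 scale (0.53 against 3.74, SE 0.38, adjusted p = 3.78e-05). Ccl2 had a difference of -2.02 (adjusted p = 0.00170), but its 9 kidneys and 3 sham livers all gave the lowest value of the arrays and it passed the filter only through treated livers, so the size of its difference is not settled and its p can rest on too little spread. At 48 h it was called for 3 of 9 genes, where 13.1% of all genes were called (4.68% with the higher response in kidney, 8.41% with the lower). Ackr4 responded more in kidney than in liver, by 1.95 (1.92 against -0.03, SE 0.19, adjusted p = 7.49e-05). Ccl28 responded downward in kidney, with a difference of -1.99 (-2.29 against -0.30, SE 0.45, adjusted p = 0.0110), although the livers read too low to show a fall. Icam1 again responded less in kidney, with a difference of -1.94 (0.07 against 2.01, adjusted p = 0.00494).

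These 5 calls held in every alternative that tested them. The median difference between the responses of the 9 genes was -0.66 at 24 h, against -0.01 over all genes, and -0.40 at 48 h, against -0.04. For Tnfaip2, called in kidney at both times and in liver at 48 h, the responses differed by -0.66 at 24 h and -1.17 at 48 h (SE 0.42), neither called (adjusted p = 0.272 and 0.0883). Both became called without sham liver array A (-1.11, adjusted p = 0.00865, range over alternatives 0.00865 to 0.509, and -1.61, adjusted p = 0.00268, range 4.35e-04 to 0.196). For Cd14 the kidney minus liver differences were -0.20 at 24 h and -0.40 at 48 h (SE 0.27, adjusted p = 0.642 and 0.393). For Nfkbia the difference at 24 h was -0.69 (adjusted p = 0.0706), called without sham liver array C (adjusted p = 0.00531, range 0.00531 to 0.895), and for Cxcl10 it was -0.66 (adjusted p = 0.139), called without 24 h liver array A (adjusted p = 0.00554, range 0.00554 to 0.300). For Ccl2 the difference at 48 h was -0.80 (adjusted p = 0.225), called without 48 h liver array A (-1.20, adjusted p = 0.0182, range 0.0182 to 0.522).

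**Figure D3:**
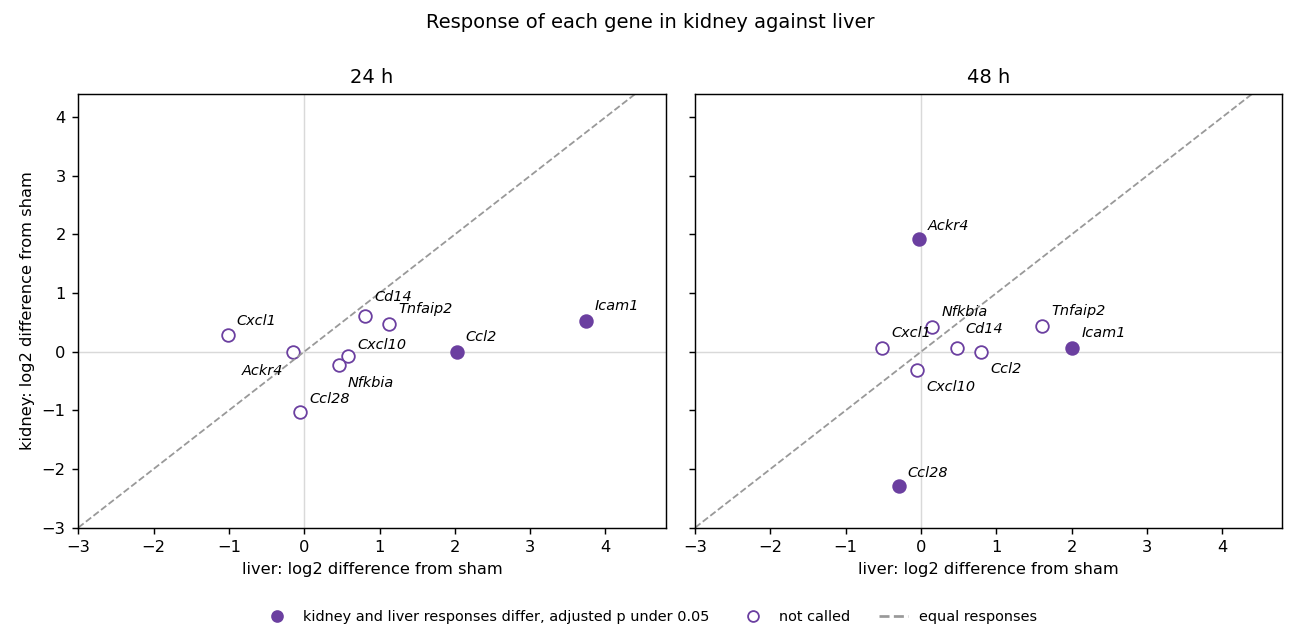
Log2 difference from sham in kidney (vertical) against liver (horizontal) for 9 genes at 24 h and 48 h; the dashed line marks equal responses and filled points are genes whose responses differ between the organs at an adjusted p under 0.05. Icam1 and Ccl2 lie to the right at 24 h, and at 48 h Ackr4 lies above and Ccl28 below the line.

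Other probe sets of the same genes were fitted as separate features, an alternative chosen after seeing the data. A second Cxcl1 set (1419209_at) fell in liver at 24 h, from 8.92 to 7.07 (log2 difference -1.85, adjusted p = 0.0357), where the set used here (1457644_s_at) was not called. Another Cxcl1 set (1441855_x_at) stayed between 2.44 and 2.76 in all 18 arrays. For Ccl28 in kidney, a second set (1450218_at) had means of 7.45 in sham, 5.0 at 24 h and 3.60 at 48 h, lower by 3.86 at 48 h and not called (adjusted p = 0.112). The remaining set (1450217_at) was lower by 0.71 (adjusted p = 0.159). All 3 Ccl28 sets had their means in the order sham, 24 h, 48 h in kidney.

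For Ackr4, a second set (1437669_x_at) was higher by 1.60 in 48 h kidney (4.32 against 2.71, adjusted p = 0.0695), and the remaining set (1426139_a_at) was at the lowest value in every array. None of the 4 other Nfkbia sets was called in any comparison within a tissue by limma. In kidney at 24 h all 4 had positive differences, from 0.02 to 0.38, whereas the set used here differed by -0.23, so the sets disagree in sign. The other Tnfaip2 sets ran from 3.57 to 3.77 (1416273_at) and from 2.216 to 2.225 (1457918_at) over the 18 arrays, the former not called and the latter not tested, so that the Tnfaip2 changes rest on 1 set (1438855_x_at). Ccl2, Cxcl10, Icam1 and Cd14 have 1 set each.

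**Figure D4:**
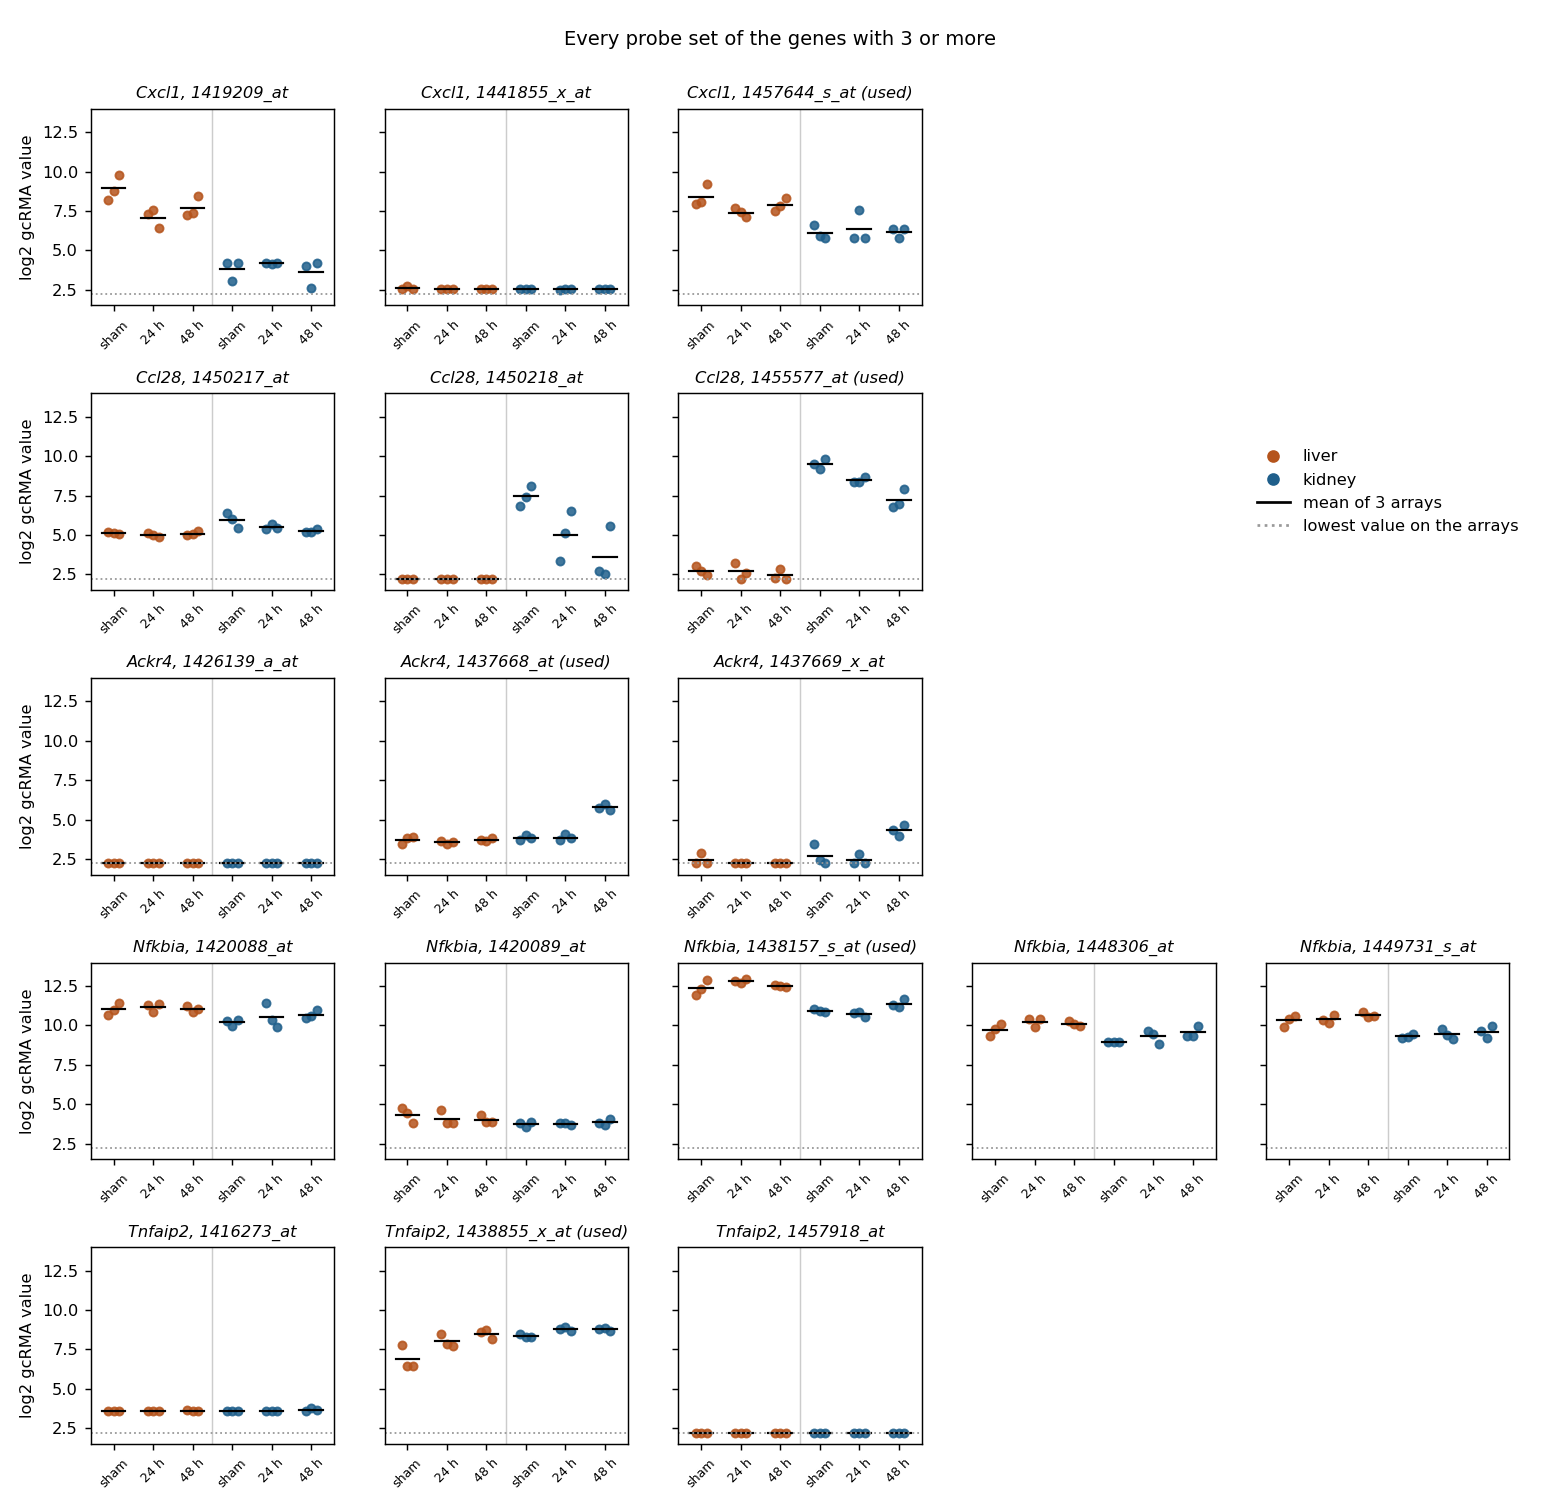
Log2 gcRMA value in each array (liver brown, kidney blue, bars for the mean of 3 arrays, dotted line at 2.213) for every probe set of the genes with 3 or more sets; the set used for the gene is marked. The Ccl28 sets fall together across the kidney groups, 2 of the 3 Ackr4 sets are highest in 48 h kidney, and 1 of the 3 Tnfaip2 sets lies well above background.

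Other genes of the same pathways were counted from lists that leave out the 10 genes and that were drawn up with earlier results known. Their counts stand beside the shares of all genes called higher and lower, which were 17.9% and 15% in liver at 24 h, 6.24% and 3.94% in liver at 48 h, 2.21% and 3.1% in kidney at 24 h, and 1.29% and 1.4% in kidney at 48 h. Whether single genes of these lists, or of the marker lists below, kept their calls with an array left out was not followed. In kidney at 24 h all calls fell from 637 to 15 without sham array B, so calls of list genes there may not hold. Of the other chemokine ligands, 17 were tested in liver, and at 24 h 1 rose and 1 fell. Ccl6, a macrophage chemokine, was 7.10-fold higher, at 10.04 ± 0.24 against 7.21 ± 0.33 (SD, n = 3, adjusted p = 3.63e-04), and was 6.36-fold higher at 48 h (adjusted p = 0.00365). Ccl9, a related chemokine, was 2.49-fold lower at 24 h (adjusted p = 0.0239). The median difference of the ligands was -0.05 at 24 h, against 0.00 over all genes. In kidney limma called 0 of 15 ligands at either time, with 0 at 24 h and 1 at 48 h at an unadjusted p under 0.05, and the rank product test called 0 at both. Only 5 of 20 chemokine receptors on the array were tested in either organ, and limma called 0 of them against sham, with 0 in liver and 2 (24 h) and 1 (48 h) in kidney at an unadjusted p under 0.05, and 0 by rank product.

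Of 21 other NF-kB subunits and regulators tested in liver, 4 rose and 2 fell at 24 h, with a median difference of 0.17. These 6 of 21 are a smaller share than the 32.9% of all genes called in either direction, so the count says nothing particular about the list. Nfkbie, an inhibitor of the Nfkbia family, was at least 3.94-fold higher (5.40 ± 0.40 against 3.43 ± 0.18, adjusted p = 0.00116). Rela, the p65 subunit of NF-kB, was 2.67-fold higher (10.72 ± 0.29 against 9.30 ± 0.34, adjusted p = 0.00717), and Map3k7, the kinase TAK1 upstream of the inhibitor kinases, was 1.92-fold higher (adjusted p = 0.00731). Bcl3, an atypical nuclear member of the inhibitor family, was 2.63-fold lower (adjusted p = 0.0138), and Ikbkb, the kinase that marks Nfkbia for degradation, was 2.41-fold lower (adjusted p = 1.37e-04).

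At 48 h in liver 1 of these 21 was called, Bcl3, which was 3.46-fold lower (adjusted p = 0.0170). In kidney 1 of 21 was called at 24 h, the adaptor Tab2, 1.44-fold lower (adjusted p = 0.0246). At 48 h limma called 0 of 21 in kidney, with 3 at an unadjusted p under 0.05 and 0 by rank product.

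Of 18 other NF-kB inducible genes tested in liver, 3 rose and 1 fell at 24 h, with a median difference of 0.01, and these 4 of 18 are again a smaller share than the 32.9% of all genes. Bcl2l1, which encodes the survival factor Bcl-xL, was 3.34-fold higher (adjusted p = 0.00124). Csf1, the macrophage growth factor, was at least 2.56-fold higher (adjusted p = 0.0152), and Vcam1, another adhesion molecule of the vessel wall, was 2.55-fold higher (adjusted p = 0.0213). Cflar, an inhibitor of caspase 8 activation, was 2.18-fold lower (adjusted p = 0.0334). At 48 h 1 of 18 was called, Vcam1, which was 2.59-fold higher (adjusted p = 0.0480).

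In kidney 2 of 17 rose at 24 h. Lcn2, the iron-binding protein also known as NGAL and released by injured tubules, was at least 27.1-fold higher, at 8.69 ± 0.75 against 3.93 ± 1.06 (adjusted p = 0.0225). Ier3, an early response gene, was 2.70-fold higher (adjusted p = 0.0235). At 48 h limma called 0 of 17 in kidney, with 2 at an unadjusted p under 0.05 and 1 by rank product.

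Around Cd14, 2 of 8 other genes of lipopolysaccharide sensing rose in liver at 24 h: the adaptor Myd88 (at least 2.44-fold, adjusted p = 0.0152) and the kinase Irak2 (2.10-fold, adjusted p = 0.0262). Limma called 0 of 8 in liver at 48 h and in kidney at either time, with 1 (liver 48 h), 1 (kidney 24 h) and 2 (kidney 48 h) at an unadjusted p under 0.05 and 0 by rank product. Around Icam1, 2 of 7 other adhesion genes rose in liver at 24 h, Vcam1 and F11r, a tight junction adhesion molecule that was 2.85-fold higher (adjusted p = 0.00305), and the median difference of the 7 was 1.01. Of all genes tested there, 17.9% were called higher and 32.9% in either direction. Neither the 2 of 8 nor the 2 of 7 says anything particular about its list. In kidney limma called 0 of 5 adhesion genes against sham, with 1 (24 h) and 0 (48 h) at an unadjusted p under 0.05 and 0 by rank product.

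Interferon-induced genes, the class to which Cxcl10 belongs, had 5 of 18 higher in liver at 24 h, where 17.9% of all genes were called higher, among them Ifit2 (at least 4.38-fold, adjusted p = 0.00992), Oasl2 (at least 4.31-fold, adjusted p = 0.0437) and Tap1, a peptide transporter (3.29-fold, adjusted p = 0.0493). At 48 h 3 of 18 were higher in liver: Irf7, a transcription factor of the interferon response (at least 6.26-fold, adjusted p = 0.00697), Oas1a (3.57-fold, adjusted p = 0.00536) and Gbp3 (2.24-fold, adjusted p = 0.0319). In kidney 2 of 17 were higher at 24 h, Ifit1 (at least 2.69-fold, adjusted p = 0.0482) and Irf9 (1.87-fold, adjusted p = 0.0454), with a median difference of 0.48 against 0.00 over all genes. At 48 h limma called 0 of 17 in kidney, with 1 at an unadjusted p under 0.05 and 0 by rank product.

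**Figure D5:**
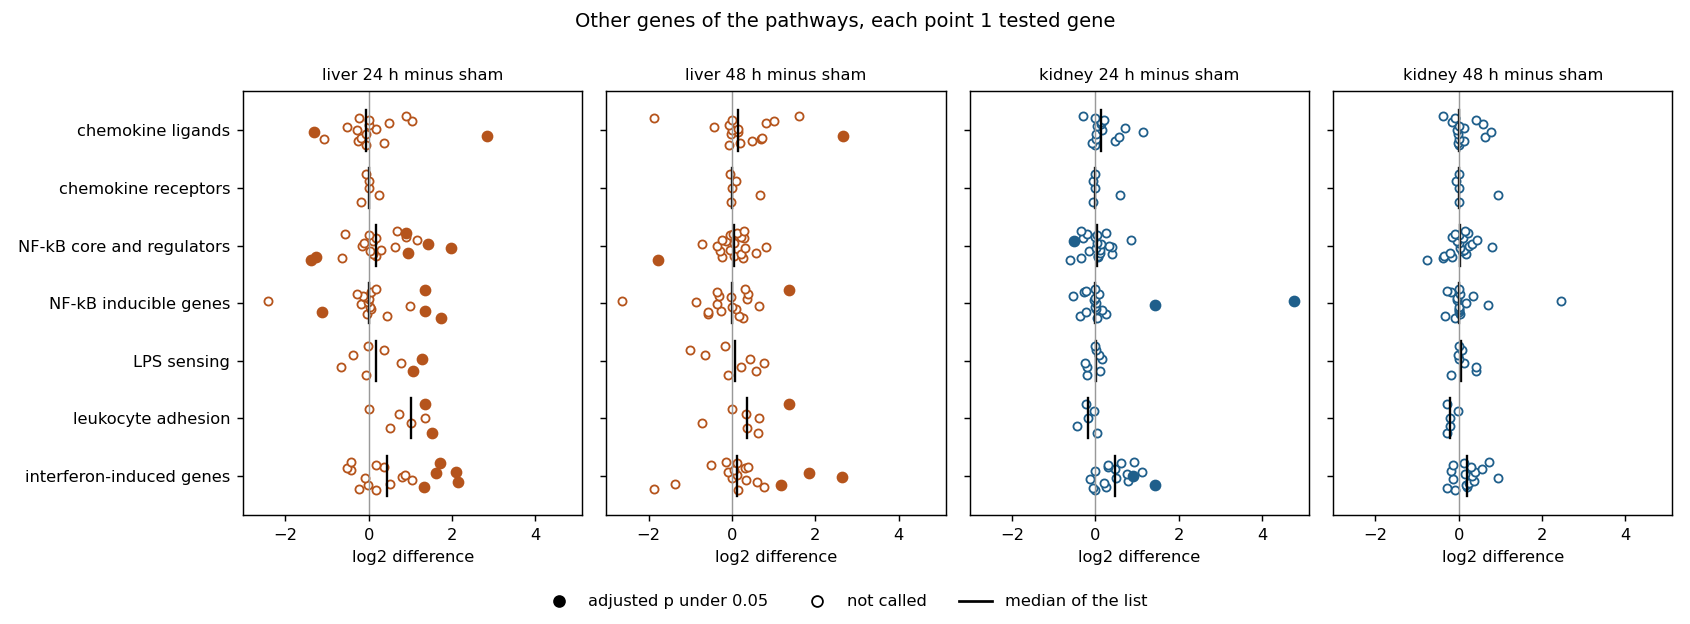
Log2 difference from sham of every tested gene of 7 pathway lists, the 10 genes left out, in liver and kidney at 24 h and 48 h; filled points have an adjusted p under 0.05 and black bars are medians. The called points are most numerous in liver at 24 h, and the point farthest right in kidney at 24 h is Lcn2 (4.76).

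Markers of several cell types were higher in liver at 24 h, when Icam1, Ccl2 and Cd14 were called higher there. Liver Tnfaip2 was higher on average by 1.13 at 24 h, not called, and by 1.61 at 48 h, called. Its step of 0.48 between these times was not called by limma (adjusted p = 0.431). Of all genes tested in liver, 17.9% were called higher at 24 h and 6.24% at 48 h. In whole-organ RNA, more cells of a type and more RNA per cell cannot be told apart. Of 13 macrophage and Kupffer cell markers, 7 rose in liver at 24 h and 3 at 48 h, among them C1qb (2.84-fold at 24 h, adjusted p = 2.88e-04) and Cd5l (2.44-fold, adjusted p = 0.00739). The log2 of their summed level ran from 13.14 to 13.78 in sham, 14.60 to 14.79 at 24 h and 14.32 to 14.40 at 48 h, with Timd4 less than 1 above the lowest value in sham livers. Of 10 endothelial markers, 7 rose at 24 h and 1 at 48 h, among them Lyve1 (16.3-fold at 24 h, adjusted p = 0.00582) and Esam (2.64-fold, adjusted p = 0.00867). Their summed level ran from 10.73 to 11.07 in sham, 11.48 to 12.42 at 24 h and 11.32 to 11.64 at 48 h.

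Of 9 stellate cell and fibroblast markers, 3 rose in liver at 24 h, Lrat (3.57-fold, adjusted p = 0.0166) and Dcn (1.91-fold, adjusted p = 0.00911) among them, and the summed level ran from 11.98 to 12.66 in sham, 13.05 to 13.11 at 24 h and 12.21 to 13.23 at 48 h. Of 7 hepatocyte markers, Fabp1 was 1.77-fold lower at 24 h (adjusted p = 0.00142), and Ttr was 1.22-fold lower at 48 h (adjusted p = 0.0293). Their summed level ran from 18.73 to 18.81 in sham, 18.53 to 18.58 at 24 h and 18.58 to 18.69 at 48 h. Among leukocyte markers, Mpo, Ngp, Camp and Cxcr2 of neutrophils and Cd3e, Cd3d, Cd3g, Cd79a, Ms4a1 and Nkg7 of lymphocytes read less than 1 above the lowest value in every group of both organs. Of the other neutrophil markers, S100a8 did so in sham and 48 h livers and in kidney, but not in every 24 h liver. S100a9 did so in kidney, but not in every array of any liver group. The summed neutrophil level ran from 5.89 to 6.08 in sham liver, 5.92 to 6.20 at 24 h and 5.89 to 6.48 at 48 h. The summed lymphocyte level ran from 6.88 to 7.30 in sham liver, 7.52 to 7.88 at 24 h and 7.49 to 8.31 at 48 h. Limma called 0 of 4 tested markers of either leukocyte type in liver, with 1 (neutrophil) and 1 (lymphocyte) at 24 h and 0 and 1 at 48 h at an unadjusted p under 0.05, and 0 by rank product. Of the 7 proximal tubule markers of kidney, Slc34a1, Lrp2, Cubn and Slc5a12 read less than 1 above the lowest value in all livers. Aqp1, of the same list, was 2.23-fold higher in liver at 24 h (10.77 ± 0.43 against 9.61 ± 0.56, adjusted p = 0.0403), and the summed level of the list in liver ran from 10.07 to 11.09 in sham, 11.12 to 11.62 at 24 h and 10.81 to 10.98 at 48 h. The part of these markers in the results was not tested.

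In kidney, limma called 0 of 10 macrophage and 0 of 10 endothelial markers at either time, with 0 of each at 24 h and 1 of each at 48 h at an unadjusted p under 0.05, and 0 by rank product. The summed macrophage level ran from 11.11 to 11.42 in sham kidney, 11.04 to 11.54 at 24 h and 11.23 to 11.68 at 48 h, and Cd68, Clec4f, Marco, Timd4 and Cd163 read less than 1 above the lowest value in all 3 groups. The summed endothelial level ran from 11.50 to 11.63, 11.55 to 12.01 and 11.70 to 11.93 in the same order.

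Beside the kidney changes of Ccl28 and Ackr4, epithelial markers moved too. Of all genes tested in kidney, 2.21% were called higher and 3.1% lower at 24 h, and 1.29% and 1.4% at 48 h. Of 8 distal nephron and collecting duct markers, 3 rose at 24 h and 1 at 48 h, among them Atp6v1b1, a proton pump subunit (2.30-fold at 24 h, adjusted p = 0.0198, and 2.91-fold at 48 h, adjusted p = 0.0142), and Scnn1g, a sodium channel subunit (1.84-fold at 24 h, adjusted p = 0.0223). Their summed level ran from 16.35 to 16.50 in sham, 16.33 to 16.59 at 24 h and 16.48 to 16.65 at 48 h. Of 7 proximal tubule markers, 1 rose at 24 h, and at 48 h Aqp1 and Cubn rose (1.79-fold and 1.53-fold, adjusted p = 0.0234 and 0.0406) and Slc22a6 fell (1.46-fold lower, adjusted p = 0.0410). Their summed level ran from 16.17 to 16.40 in sham, 16.19 to 16.40 at 24 h and 16.43 to 16.52 at 48 h. Of 5 cholangiocyte markers, which kidney epithelium shares in part, Krt7 was 2.02-fold higher at 24 h (adjusted p = 0.0428), and the summed level ran from 9.49 to 9.55 in sham, 9.85 to 10.47 at 24 h and 9.82 to 10.13 at 48 h. Limma called 0 of 4 podocyte and 0 of 9 stellate cell and fibroblast markers in kidney, with 0 of the former and 0 (24 h) and 2 (48 h) of the latter at an unadjusted p under 0.05, and 0 and 1 (48 h) by rank product. The part of these markers in the kidney changes was not tested.

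The genes whose log2 values followed a member most closely over the 9 arrays of a tissue were found for the 2 members with the largest 24 h differences in each organ, as a description. In liver, Icam1 was most like Blcap (Pearson r = 0.984), Utp18 (0.984) and Rhpn2 (0.974), and Ccl2 was most like Zfp800 (0.983), Zscan12 (0.971) and Bloc1s4 (0.960), out of 12071 genes. In kidney, Ccl28 was most like Cptp (0.965), Pip4p2 (0.958) and Prune1 (0.950), and Cd14 was most like Tfeb (0.995), Eif2b4 (0.983) and Sf1 (0.974), out of 12003 genes. The 9 arrays of a tissue fall in 3 treatment groups.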

How the data were processed

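The authors deposited log2 gcRMA expression values of 45101 probe sets for 18 Affymetrix mouse arrays. GCRMA is named in the submitters' processing notes, and its version and the genome build are not given in the sources used here. Of these sets, 34945 were annotated to exactly 1 gene (18193 genes), 932 to several and 9160 to none, and 64 controls were left out.

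The highest set by mean stood for each gene. In each tissue, genes were kept where 3 or more of its 9 values exceeded that array's median (percentile 50), and were fitted with limma 3.58.1 in R 4.3.3 (lmFit, eBayes with an intensity trend, 3 group means), with Benjamini-Hochberg adjustment over all genes tested. The difference between organs was fitted over 18 arrays. The test was checked on simulated data with known log2 changes of 0.5, 1 and 2 at 24 h. In liver limma called 10.4%, 17.9% and 72.7% of them, and in kidney 23.9%, 73.1% and 97%. A difference not called in liver therefore does not show that a gene was unchanged, or that it responded less than in kidney.

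The 10 genes, the pathway and marker lists and the tests were chosen with earlier results of these data known. Named in each comparison with sham are all 10 genes, up to 3 called genes per direction with the largest change from each pathway list, and up to 2 called genes per direction with the smallest p from each marker list. The genes most like a member (3 each) were taken for the 2 members with the largest 24 h difference in each tissue. A summed level is the log2 of the sum of a list's linear values. Alternatives were 2 other filters, the mean of a gene's sets, quantile normalization, no intensity trend, array weights, a replicate block, other sets of arrays in the fit, rank product statistics with 100 permutations, the method named by the series, leaving out each array, and, chosen after seeing the data, every probe set as a feature. Array values carry no read depth, so the number of arrays limits the precision. Promoter sequences are from RefSeq (GRCm38.p6). Tables and figures used Python 3.11.15, pandas 2.3.3 and matplotlib 3.10.9.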

Additional observations from a re-analysis of the deposited data

Results flagged for a closer look

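For 4 of the 10 genes (Ccl2 with the limit given below), the response to GalN differed between liver and kidney by a test of the difference itself (limma, all 18 arrays). At 24 h the kidney response minus the liver response was -3.21 for Icam1 and -2.02 for Ccl2 on the log2 scale. At 48 h it was -1.94 for Icam1, -1.99 for Ccl28 and 1.95 for Ackr4. For Ccl2 the 9 kidneys, and for Ccl28 the 9 livers, lay at or near the lowest value of the arrays, so a fall could not have been read in them. With its 3 sham livers at the same reading too, the size of the Ccl2 difference is not settled and its p can be too small.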

How the results depend on the processing

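For the differences of single genes, 1451 values were recomputed: 1338 kept their side of the threshold, 80 lost a call, 33 gained one and 0 reversed a call. Some differences that were not called changed sign, such as Cxcl1 in kidney at 48 h against sham (6 of 20 alternatives). Icam1 in liver at 24 h and Ackr4 in kidney at 48 h were called in 20 of 20 alternatives. The counts moved more, and the cause was not tested. In liver at 24 h the count of the 10 genes called went from 3 to 6 with array weights and 1 by rank product (594 of all genes, against 3966), and to 2 to 3 with 1 array left out (2834 to 4652 of all genes). In liver at 48 h it went from 2 to 1 with no filter, the mean of sets, quantile normalization, only the 6 arrays compared or rank product, and to 0 to 2 with 1 array left out. All genes called there numbered 1228, against 769 with no filter, 4728 with array weights, 2515 with all 18 arrays, 741 with 6 arrays, 288 by rank product and 448 to 1599 with 1 array left out. From 24 h to 48 h in liver the 1 gene called became 2 with quantile normalization or array weights, 3 with all 18 arrays, 0 by rank product (454 of all genes, against 3355) and 1 to 2 with 1 array left out (2581 to 3466).

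In kidney at 24 h the 2 genes called became 1 with the filter at 5 or the mean of sets, 0 with all 18 arrays, only 6 arrays or rank product, and 0 to 3 with 1 array left out. All genes called there numbered 637, against 285 with no filter, 376 with 18 arrays, 78 with 6 arrays, 165 by rank product and 15 to 669 with 1 array left out. At 48 h the 3 became 1 with only 6 arrays and 1 to 3 with 1 array left out, and the 323 of all genes became 131 with no filter, 512 with the filter at 5, 1245 with array weights, 201 with 18 arrays, 210 by rank product and 29 to 469 with 1 array left out. From 24 h to 48 h the 2 became 1 with no filter, the filter at 5, 18 arrays or 6 arrays and 0 to 1 with 1 array left out, and the 193 of all genes became 64 with no filter, 19 with 6 arrays and 1 to 162 with 1 array left out. For the difference between organs, the 2 genes at 24 h became 1 with the filter at 5 and 5 with array weights, with 2 to 3 when 1 array was left out (3171 to 4438 of all genes, against 3778 with all arrays). The 3 at 48 h became 3 to 4 with 1 array left out, and the 1633 of all genes became 4537 with array weights and 1140 to 2079 with 1 array left out.

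The labels do not say whether the letters A to C pair the arrays, and the letters were not taken to do so. Deviations from the group means correlated at -0.0645 to 0.253 between liver and kidney of a letter and at -0.125 to 0.230 within a tissue. Arrays of unlike letters were not compared, so these values do not settle whether a letter is 1 mouse. With the letter as a replicate block, all genes called became 605 (liver 48 h), 143 (kidney 24 h), 49 (kidney 48 h) and 4 (kidney 24 h to 48 h), and the members called became 0 in kidney at 24 h and 1 from 24 h to 48 h. The 5 calls of a difference between organs held with treatment and letter as the replicate block (adjusted p at most 0.0415). With 3 arrays a group and 46.8% to 48.8% of values near the floor, small changes of dim genes could not be read.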
